A study of Mus musculus with 12 samples.

Results

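Long-chain fat is burned in muscle by a set of mitochondrial enzymes, and 32 genes of that route and of the receptors that switch it on were followed in muscle of mice with a lung tumour and in cultured myotubes. The genes were chosen by name, with earlier results of these data known. They fall into 8 roles: the carnitine shuttle and fatty acid activation (7 genes), the acyl-CoA dehydrogenases (4), the trifunctional protein and the later steps of beta-oxidation (6), the auxiliary enzymes for unsaturated fat (4), the electron transfer flavoprotein branch (3), the uncoupling proteins (2), the control of malonyl-CoA and of lipoprotein lipase (2), and the peroxisome proliferator-activated receptors (PPARs) with their coactivator (4). All 32 were found among the 20194 genes of the RNA table. In the open-chromatin table, 63 of the 38244 peaks were named for 28 of them, and Cpt1b, Etfdh, Hadha and Ppara had no peak under their own name.

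The RNA came from muscle of C57BL/6 mice injected with phosphate-buffered saline (PBS) or, under the skin, with 500000 Lewis lung carcinoma (LLC) cells, a mouse lung tumour line that causes cachexia, the wasting of muscle and fat in cancer. Tissue was taken on day 22, and PBS and LLC had 3 libraries each. The labels give neither the muscle nor the age or sex of the mice. Open chromatin was measured by ATAC-seq, in which a transposase cuts accessible DNA, in C2C12 myotubes, muscle fibres grown from a C3H mouse myoblast line. They were kept in control medium or for 24 h in medium conditioned by C26 colon carcinoma cells, with 3 libraries each. The labels call these cells myoblasts in the cell type field and myotubes in the titles. The labels do not tie the libraries to different mice or culture wells, so the p-values measure the spread between libraries, which may be technical. The tumours also differ between the assays (LLC in mice, C26 medium in cells), so the 2 sets of values are described side by side only.

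A long-chain fatty acid is first bound to coenzyme A, passed to carnitine by the CPT1 enzymes of the outer mitochondrial membrane, carried across the inner membrane by the carnitine carrier and handed back to coenzyme A by CPT2. Beta-oxidation then shortens it in a cycle of dehydrogenation, hydration, a further dehydrogenation and thiolysis, with the first electrons leaving through the electron transfer flavoprotein. Malonyl-CoA blocks CPT1 and so sets the rate of entry. The PPARs are nuclear receptors that bind fatty acids and pair with retinoid X receptors on a DNA element called DR1, a direct repeat of AGGTCA with 1 base between the copies. Most of the members are known PPAR targets in heart, liver or muscle.

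Because the members are known targets of receptors that read DR1, their promoters were searched for it. RefSeq promoter entries of 300 bases (250 before the start and 50 from it on, build GRCm38.p6) were found for 26 members, with 29 entries in all. The search compared 12 letters, AGGTCANAGGTCA without its spacer, on both strands. With at most 2 mismatches it matched 4 of the 29 entries (13.8%), against 3.86% of the 32851 entries of all genes. With at most 3 mismatches the shares were close, 8 of 29 (27.6%) against 24.6%. At least 1 exact AGGTCA, on either strand, was in 7 entries (24.1%), against 16.3% of all entries. The 7 include the entries of Ucp3 and Echs1 but not those of Slc25a20 and Etfa, whose DR1 matches hold no exact copy. No member entry matched DR1 with fewer than 2 mismatches. The 4 stretches are shown because they hold the closest matches among the members, with the matched bases in capitals, the base before the transcript start at the right end except for Slc25a20, and all letters 5′ to 3′ on the strand of the gene:

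Ucp3, chr7:100472791-100472990, plus strand: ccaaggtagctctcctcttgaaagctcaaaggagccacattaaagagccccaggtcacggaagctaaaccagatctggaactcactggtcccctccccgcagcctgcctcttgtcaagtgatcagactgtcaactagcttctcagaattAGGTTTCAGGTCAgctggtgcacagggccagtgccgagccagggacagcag

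Slc25a20, chr9:108661936-108662154, plus strand: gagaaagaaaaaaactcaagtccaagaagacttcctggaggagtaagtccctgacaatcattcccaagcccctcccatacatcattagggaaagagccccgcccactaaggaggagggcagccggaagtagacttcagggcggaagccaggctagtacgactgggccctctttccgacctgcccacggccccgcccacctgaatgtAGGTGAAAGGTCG

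Etfa, chr9:55512244-55512443, minus strand: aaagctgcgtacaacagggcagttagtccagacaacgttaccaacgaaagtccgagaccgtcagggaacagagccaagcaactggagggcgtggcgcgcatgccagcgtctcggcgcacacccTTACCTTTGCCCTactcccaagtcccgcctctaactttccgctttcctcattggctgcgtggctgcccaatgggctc

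Echs1, chr7:140116422-140116621, minus strand: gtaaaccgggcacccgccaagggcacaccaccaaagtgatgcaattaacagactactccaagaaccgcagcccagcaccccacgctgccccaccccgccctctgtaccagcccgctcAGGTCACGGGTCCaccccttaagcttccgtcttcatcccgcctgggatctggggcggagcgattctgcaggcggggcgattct

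The Ucp3 match begins 51 bases before the start, the Etfa match 77 and the Echs1 match 83. The Slc25a20 match begins at base 7 of the transcript. The Etfa match reads on the opposite strand. A match describes the letters only. Ucp3 encodes the muscle uncoupling protein, Slc25a20 the carnitine carrier, Etfa a subunit of the electron transfer flavoprotein and Echs1 the short-chain enoyl-CoA hydratase, and their measured values follow under their roles.

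The RNA libraries held 25.7 to 32.5 M read ends in genes and the ATAC libraries 10.1 to 18.2 M tags, of which 1.66 to 3.03 M lay in peaks. ATAC control 1 stood apart, with 27.1% of its tags in peaks against 12.0% to 17.9% in the other 5 libraries. RNA libraries differed in what else they held. Summed levels of 7 neutrophil and marrow genes were 122.1, 6179 and 11730 FPKM (fragments per kilobase of transcript and 1e6 reads) in PBS 1, 2 and 3 and 5858, 10340 and 181.2 FPKM in LLC 1, 2 and 3. Summed levels of 8 fat cell genes were 520.5 to 801.1 FPKM in PBS, and 626.2, 790.2 and 2304 FPKM in LLC 1, 2 and 3. Summed levels of 8 endothelial genes were 123.3 to 145.5 FPKM in PBS and 237.7 to 291.9 FPKM in LLC, 7 of the 8 with a difference above 0. Those of 8 slow-fibre genes were 130.9 to 567.9 FPKM in PBS and 338.0 to 1193 FPKM in LLC, all 8 above 0, and those of 6 tendon genes were lower in each LLC library (39.06 to 255.6) than in any PBS library (289.5 to 426.3). Summed levels of 6 epidermal genes ran from 0.515 to 108.5 FPKM in PBS and from 60.96 to 1314 FPKM in LLC. Slow fibres carry more mitochondria than fast ones. The part of these cell types in the differences that follow was not tested, and in bulk muscle fewer cells of a type and less RNA per cell cannot be told apart. The 8 fast-fibre genes summed to 25950 to 32740 FPKM in PBS and 30640 to 36550 FPKM in LLC. As with the slow-fibre sums, the groups overlapped, and all 8 differences were above 0. Their median difference was 0.166, against 1.725 for the slow-fibre genes.

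Most of the listed fat-oxidation genes had modestly higher values in LLC muscle. The list was chosen with earlier results of these data known, so its shares describe the list and test nothing. Of the 32 members, 29 had a mean log2(FPKM + 1) difference, LLC minus PBS, above 0, against 53.0% of the 12981 genes tested. The median difference was 0.47 over the members and 0.01 over all genes. In 23 members every LLC library lay above every PBS library, against 9.50% of all genes, and in 0 members every LLC library lay below, against 3.94%. At an unadjusted limma p under 0.05, 21 members were higher, against 5.82% of all genes, and 0 were lower, against 1.82%. That count of members depended on the setting: it was 13 with median-of-ratios scaling of the FPKM, 13 with edgeR, 14 with quantile normalization and 14 without PBS 2. Without PBS 1 it was 21 again, but the share of all genes at that p, in either direction, rose from 7.63% to 20.4%. With Benjamini-Hochberg adjustment over all genes, limma called 0 members and 0% of all genes. edgeR on reads recovered from the FPKM also called 0 members. DESeq2 on the same reads called 7 members higher and 0 lower, against 1.88% and 0.525% of all genes. These 7 were Mlycd, Slc25a20, Ucp3, Eci1, Acadl, Angptl4 and Ech1. So no member passed the test chosen for FPKM, and differences are given below as values.

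**Figure D1:**
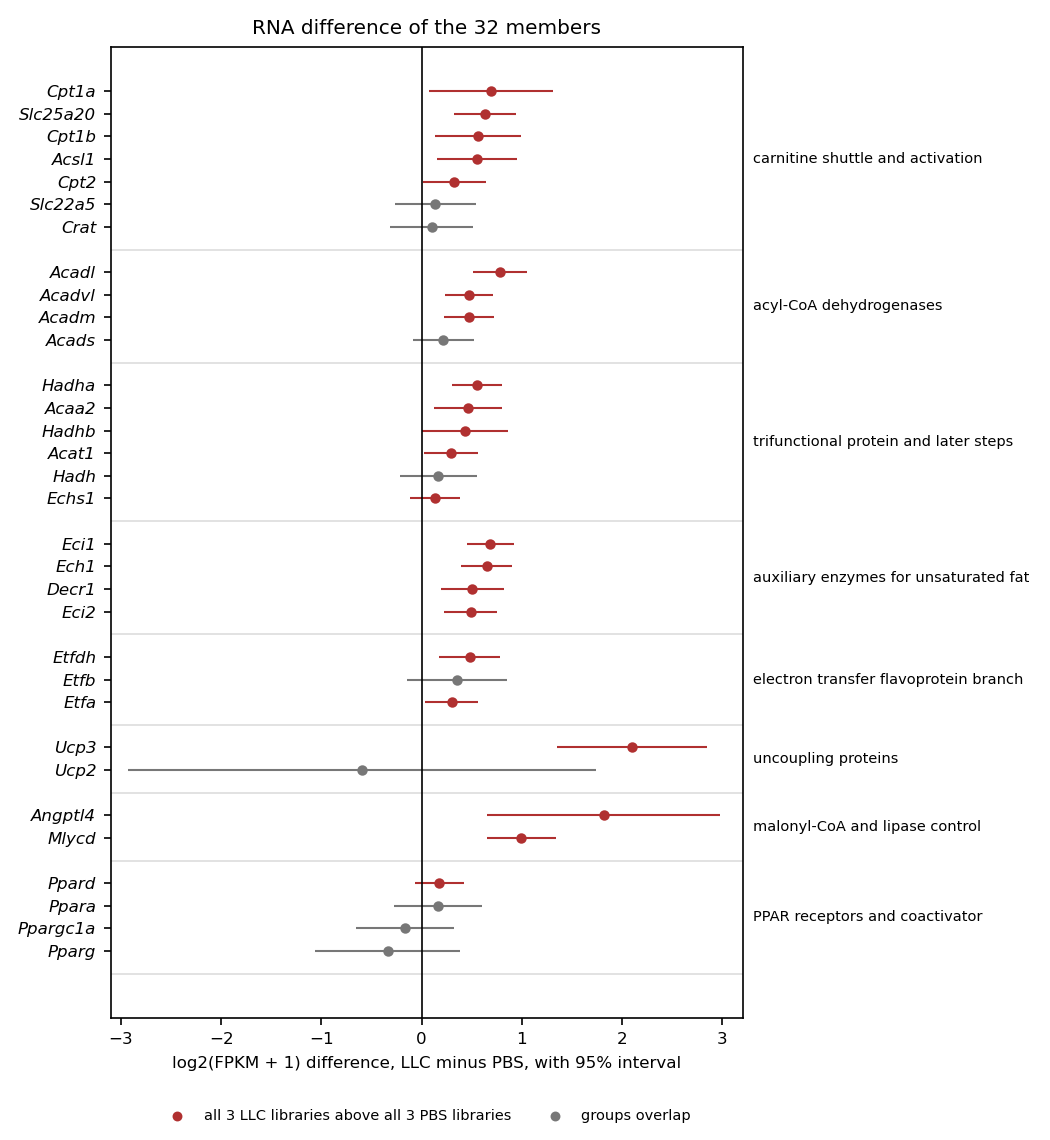
LLC minus PBS difference in log2(FPKM + 1) for each of the 32 members (x axis), ordered by role, with the 95% interval from limma (n = 3 libraries a group). Red points mark the 23 members in which all LLC libraries lay above all PBS libraries, grey points those whose groups overlap, and 29 of the 32 points lie right of 0.

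Removing PBS 1 and LLC 3, the libraries low in marrow genes, left 30 members above 0 with a median difference of 0.44. The sums give the same picture in level. The 17 members that encode enzymes of the mitochondrial matrix (the acyl-CoA dehydrogenases, the trifunctional and later steps, the auxiliary enzymes and the electron transfer branch) summed to 1244, 1176 and 1279 FPKM in PBS and 1752, 1657 and 1689 FPKM in LLC. The groups did not overlap in that sum. All 17 had a difference above 0, with a median of 0.47. The 18 citrate cycle genes, whose cycle takes up the product of beta-oxidation, summed to 3569, 3321 and 3353 FPKM in PBS. In LLC they summed to 3718, 3294 and 3517 FPKM, with overlap and a median difference of 0.01.

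Among the carnitine shuttle genes, all 7 differences were above 0 (median 0.56, range 0.10 to 0.69). In 5 of them every LLC library lay above every PBS library, against 9.50% of all genes. Slc25a20 stood at 20.9, 25.4 and 26.04 FPKM in PBS and 35.9, 40.1 and 37.3 FPKM in LLC. Its 3 LLC libraries lay close together, all above the PBS libraries, with a difference of 0.63 (SE 0.12, limma adjusted p = 0.257, DESeq2 adjusted p = 1.2e-08). The entry step itself has a liver-type enzyme, Cpt1a, and a muscle-type enzyme, Cpt1b. Cpt1b stood at 86.1, 65.7 and 56.8 FPKM in PBS and 100.7, 96.5 and 108.8 FPKM in LLC (difference 0.57, SE 0.17, limma adjusted p = 0.495). The groups did not overlap, and PBS 1 was the highest of its group. Cpt1a was far lower in level, at 3.73, 6.88 and 7.83 FPKM in PBS and 9.41, 10.1 and 11.0 FPKM in LLC (difference 0.69, SE 0.25, limma adjusted p = 0.596). Here PBS 1 was the lowest library, so the ratio of Cpt1b to Cpt1a was 23.1 in PBS 1, 9.55 and 7.26 in PBS 2 and 3, and 9.52 to 10.7 in LLC. The muscle-type enzyme therefore held the larger level in all 6 libraries, and the ratio overlapped between the groups.

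Acsl1, the long-chain acyl-CoA synthetase that activates fatty acids, stood at 72.2, 59.6 and 60.9 FPKM in PBS and 89.0, 83.2 and 113.9 FPKM in LLC (difference 0.55, SE 0.16, limma adjusted p = 0.456). LLC 3 was the highest library. Cpt2, the inner-membrane transferase, stood at 24.997, 21.35 and 21.04 FPKM in PBS and 26.8, 26.8 and 31.7 FPKM in LLC, a smaller step of 0.33 (SE 0.13, limma adjusted p = 0.626) that still left the groups apart. The remaining shuttle genes overlapped: Crat, the carnitine acetyltransferase that exports acetyl groups, had a difference of 0.10 (SE 0.17), and Slc22a5, the carnitine transporter of the cell membrane, 0.14 (SE 0.16).

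The acyl-CoA dehydrogenases each open the cycle for one range of chain lengths. Acadl, for long chains, stood at 88.4, 79.7 and 93.9 FPKM in PBS and 147.0, 154.4 and 148.7 FPKM in LLC. The lowest LLC library was well above the highest PBS library, and the difference was 0.78 (SE 0.11, limma adjusted p = 0.153, DESeq2 adjusted p = 0.00153). Acadm, for medium chains, stood at 107.6, 109.2 and 115.2 FPKM in PBS and 161.5, 151.9 and 147.2 FPKM in LLC (difference 0.47, SE 0.10, limma adjusted p = 0.303). Acadvl, for very long chains, stood at 92.9, 91.6 and 99.1 FPKM in PBS and 132.3, 132.0 and 129.5 FPKM in LLC (difference 0.47, SE 0.10, limma adjusted p = 0.275). Both kept their groups apart with little spread within LLC. Acads, for short chains, overlapped at 29.2, 33.4 and 34.4 FPKM in PBS and 38.3, 34.0 and 41.0 FPKM in LLC (difference 0.22, SE 0.12). The ratio of Acadl to Acads was 2.39 to 3.02 in PBS and 3.63 to 4.54 in LLC, so the balance between these enzymes also lay apart.

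The mitochondrial trifunctional protein, made of Hadha and Hadhb, carries out the next steps for long chains. Hadha, its alpha subunit, stood at 85.1, 79.8 and 86.5 FPKM in PBS and 125.7, 116.0 and 128.6 FPKM in LLC (difference 0.55, SE 0.10, limma adjusted p = 0.225). Hadhb, its beta subunit, stood at 145.2, 99.6 and 101.2 FPKM in PBS and 160.1, 146.0 and 155.1 FPKM in LLC (difference 0.43, SE 0.18, limma adjusted p = 0.653). PBS 1 came close to the lowest LLC library for Hadhb, and the ratio of Hadha to Hadhb was 0.586 in PBS 1 and between 0.785 and 0.854 in the other 5 libraries. The genes lie head to head on chromosome 5, with listed starts 273 bp apart and 228 bases shared by their promoter entries.

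The remaining enzymes of this role act on shorter chains or at the end of the cycle. Acaa2, the mitochondrial 3-ketoacyl-CoA thiolase, stood at 70.9, 61.6 and 73.4 FPKM in PBS and 108.6, 92.0 and 85.4 FPKM in LLC (difference 0.46, SE 0.14, limma adjusted p = 0.481). Acat1, the acetoacetyl-CoA thiolase, stood at 42.3, 47.0 and 47.4 FPKM in PBS and 58.8, 51.5 and 58.1 FPKM in LLC (difference 0.29, SE 0.11, limma adjusted p = 0.613). Both groups stayed apart. Echs1, the short-chain enoyl-CoA hydratase whose promoter is shown above, was apart by a narrow margin, at 66.03 to 70.4 FPKM in PBS and 71.0 to 79.1 FPKM in LLC, with a difference of 0.13 (SE 0.10). Hadh, the short-chain hydroxyacyl-CoA dehydrogenase, overlapped with a difference of 0.17 (SE 0.16).

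The auxiliary enzymes, which move or remove double bonds so that unsaturated chains can enter the cycle, had similar differences (0.49 to 0.68, median 0.58). In all 4 every LLC library lay above every PBS library, against 9.50% of all genes. Eci1, an enoyl-CoA isomerase, stood at 53.7, 52.7 and 56.9 FPKM in PBS and 90.5, 86.8 and 86.7 FPKM in LLC (difference 0.68, SE 0.10, limma adjusted p = 0.153, DESeq2 adjusted p = 0.0013). Ech1, the dienoyl-CoA isomerase, stood at 117.7, 105.2 and 111.7 FPKM in PBS and 181.2, 176.1 and 169.5 FPKM in LLC (difference 0.65, SE 0.10, limma adjusted p = 0.168, DESeq2 adjusted p = 0.0406). In both, the gap between the groups was wider than the range within either. Decr1, the dienoyl-CoA reductase, stood at 27.6, 22.5 and 22.8 FPKM in PBS and 34.7, 32.4 and 37.5 FPKM in LLC (difference 0.51, SE 0.13, limma adjusted p = 0.398). Eci2, a further enoyl-CoA isomerase, stood at 34.8, 31.6 and 34.8 FPKM in PBS and 44.99, 46.98 and 51.37 FPKM in LLC (difference 0.49, SE 0.11, limma adjusted p = 0.308).

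Electrons from the acyl-CoA dehydrogenases pass to the electron transfer flavoprotein, made of Etfa and Etfb, and from it through Etfdh to ubiquinone. Etfdh stood at 41.2, 37.9 and 41.1 FPKM in PBS and 56.7, 49.9 and 62.6 FPKM in LLC (difference 0.48, SE 0.12, limma adjusted p = 0.408). Etfa stood at 84.1, 83.7 and 85.8 FPKM in PBS and 104.3, 95.9 and 113.3 FPKM in LLC (difference 0.30, SE 0.11, limma adjusted p = 0.589). Neither overlapped, and the ratio of Etfa to Etfdh was 2.04 to 2.21 in PBS and 1.81 to 1.92 in LLC. Etfb overlapped, because PBS 3 at 139.9 FPKM lay above LLC 3 at 125.7 FPKM (difference 0.35, SE 0.20).

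The uncoupling proteins of the inner membrane parted ways. Ucp3, the muscle form, stood at 12.4, 8.35 and 6.14 FPKM in PBS and 28.9, 46.6 and 48.4 FPKM in LLC. Every LLC library held more than any PBS library, the mean was 4.61 times higher (8.97 ± 3.195 against 41.3 ± 10.8 FPKM, SD, n = 3), and the difference was 2.10 (SE 0.30, limma adjusted p = 0.157, DESeq2 adjusted p = 0.000112), the largest among the members. Ucp2, its neighbour on chromosome 7 and a form found in many cell types, immune cells among them, stood at 28.8, 218 and 347 FPKM in PBS and 75.0, 137 and 61.8 FPKM in LLC. The groups overlapped, with a difference of -0.60 (SE 0.95) that became 0.11 without PBS 3 and -1.43 without PBS 1 and LLC 3. Within PBS and within LLC, the libraries had the same order in Ucp2 as in the summed neutrophil and marrow genes; the 6 erythroid genes had that order too. They summed to 106.3, 2304 and 5509 FPKM in PBS and 437.3, 1226 and 324.4 FPKM in LLC, with all 6 differences below 0 (median -1.53), while the neutrophil and marrow genes had a median difference of 0.05. The part of either kind of cell in Ucp2 was not tested. The ratio of Ucp3 to Ucp2 accordingly overlapped, at 0.432, 0.038 and 0.018 in PBS and 0.385, 0.341 and 0.784 in LLC.

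**Figure D2:**
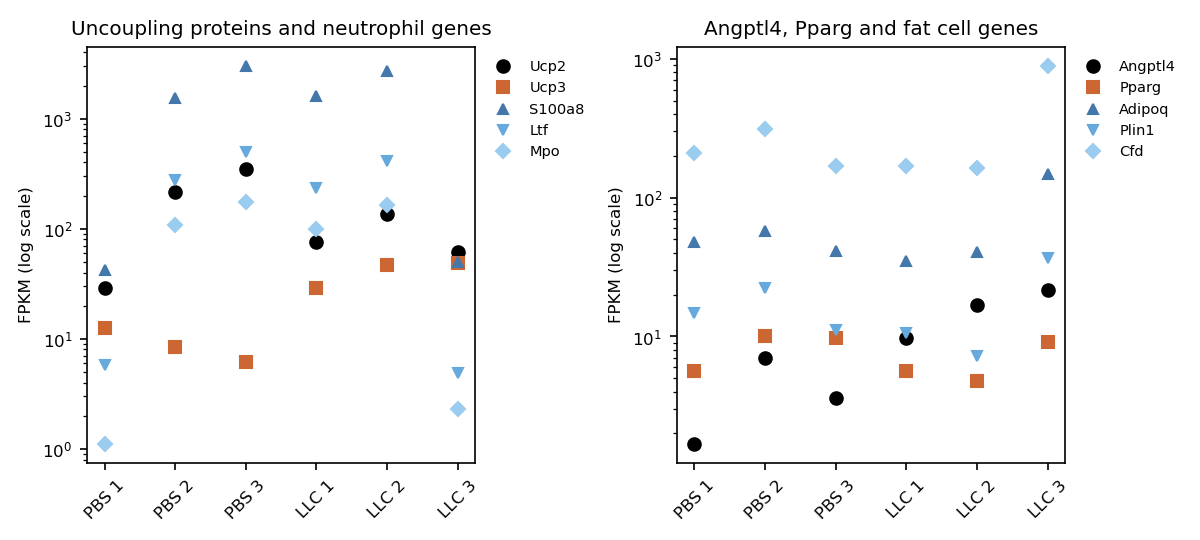
FPKM on a log scale (y axis) in each of the 6 muscle libraries (x axis) for Ucp2 and Ucp3 with the neutrophil genes S100a8, Ltf and Mpo (left) and for Angptl4 and Pparg with the fat cell genes Adipoq, Plin1 and Cfd (right). Neutrophil genes were low in PBS 1 and LLC 3, where S100a8 was at 42.0 and 49.4 FPKM, and fat cell genes were high in LLC 3, where Adipoq was at 148.3 FPKM.

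The members that govern supply to the pathway had large differences. Mlycd, malonyl-CoA decarboxylase, which removes the inhibitor of CPT1, stood at 19.0, 23.6 and 22.6 FPKM in PBS and 39.2, 48.8 and 44.8 FPKM in LLC. The groups were far apart and the mean was 2.04 times higher (21.7 ± 2.43 against 44.2 ± 4.80 FPKM, SD, n = 3), a difference of 0.99 (SE 0.14, limma adjusted p = 0.153, DESeq2 adjusted p = 9.89e-12). Mlycd had the smallest unadjusted limma p of the 32. Acacb, the acetyl-CoA carboxylase that makes malonyl-CoA at the mitochondrial surface, was also higher, at 28.5, 20.2 and 17.5 FPKM in PBS and 30.4, 33.3 and 45.1 FPKM in LLC (difference 0.70, SE 0.23, limma adjusted p = 0.537). The ratio of Mlycd to Acacb was 0.665, 1.17 and 1.29 in PBS and 1.29, 1.46 and 0.993 in LLC, with overlap, so the balance of the enzyme that removes malonyl-CoA to the one that makes it did not separate the groups. Angptl4, a secreted inhibitor of lipoprotein lipase and a PPAR target in muscle and fat, stood at 1.68, 7.05 and 3.58 FPKM in PBS and 9.67, 16.9 and 21.6 FPKM in LLC. The groups were apart, with PBS 1 lowest and LLC 3 highest, and the difference was 1.82 (SE 0.47, limma adjusted p = 0.411, DESeq2 adjusted p = 0.0138). Without those libraries, of which LLC 3 also held the most fat cell RNA, it was 1.19.

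**Figure D3:**
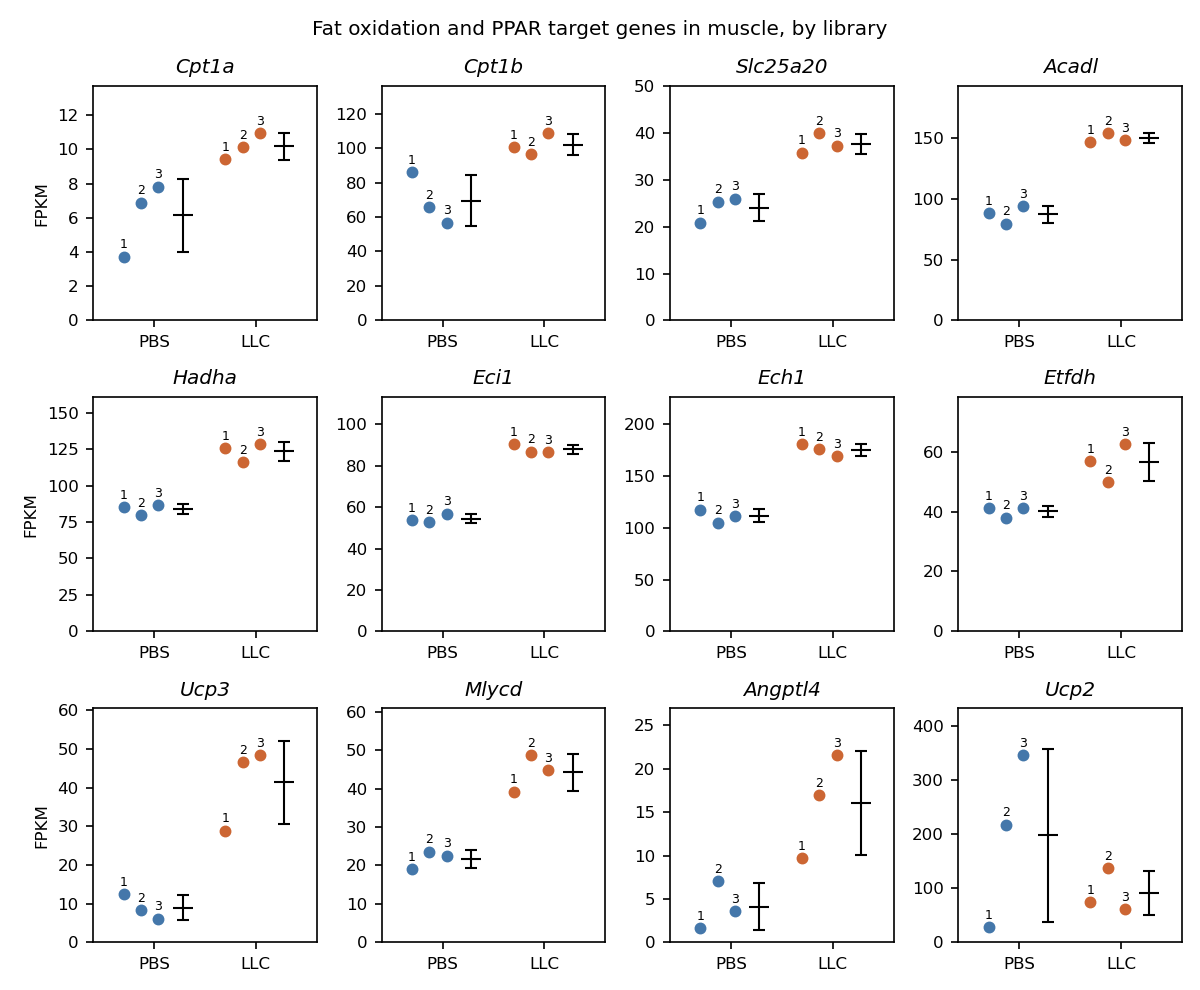
FPKM (y axis, from 0) in the 3 PBS and 3 LLC libraries for 12 members, points numbered by library, with the mean and SD beside them. All LLC points lie above all PBS points in every panel except that of Ucp2.

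The receptors and their coactivator had small differences in either direction, and none was called by any of the 3 tools. Ppara stood at 2.16, 1.48 and 1.36 FPKM in PBS and 2.28, 1.59 and 2.06 FPKM in LLC (difference 0.17, 95% interval -0.27 to 0.60). Ppard, the receptor with the widest role in skeletal muscle, stood at 6.94, 6.70 and 7.00 FPKM in PBS and 8.12, 7.46 and 8.13 FPKM in LLC, apart but with a difference of 0.18 (95% interval -0.07 to 0.42, limma adjusted p = 0.861). Those intervals leave room for changes in either direction. Pparg, the receptor of fat cells, stood at 5.68, 10.0 and 9.72 FPKM in PBS and 5.65, 4.80 and 9.13 FPKM in LLC, with overlap and a difference of -0.34 (95% interval -1.06 to 0.38). Without PBS 1 and LLC 3 it was -0.81. Ppargc1a, the coactivator PGC-1alpha, stood at 4.74, 2.92 and 2.74 FPKM in PBS and 3.16, 2.97 and 2.61 FPKM in LLC, with PBS 1 above the other 5 libraries. Its difference was -0.17 (95% interval -0.66 to 0.32), and 0.03 without PBS 1. The median over these 4 was 0.00, below that of every other role.

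Other genes of the pathway came from lists that the members are not part of except where said. These lists too were chosen with earlier results of these data known, and their medians gave the same contrast. A list of 19 genes taken as further PPAR targets in muscle held 18 that were tested, while Fgf21 was too low to test. Not all of the list need be direct PPAR targets. Of the 18 tested genes, 17 were above 0 with a median of 1.05. In 12 of them every LLC library lay above every PBS library, against 9.50% of all genes. At an unadjusted limma p under 0.05, 11 were higher, against 5.82% of all genes. DESeq2 called 7 of them higher, against 1.88% of all genes. limma called 0 genes in this or any other list. Pdk4, the kinase that shuts pyruvate out of the citrate cycle, stood at 33.6, 18.3 and 19.6 FPKM in PBS and 154.5, 340.4 and 369.7 FPKM in LLC (difference 3.49, SE 0.41, limma adjusted p = 0.138, DESeq2 adjusted p = 1.56e-10). Plin5, a lipid droplet protein, stood at 3.11, 2.94 and 3.79 FPKM in PBS and 9.56, 10.6 and 8.14 FPKM in LLC (difference 1.28, SE 0.14, limma adjusted p = 0.138). Slc25a34, a mitochondrial carrier, had a difference of 1.57 (SE 0.19). Acot2, a mitochondrial thioesterase, stood at 1.62, 1.66 and 1.54 FPKM in PBS and 5.39, 5.49 and 6.55 FPKM in LLC, a difference of 1.38 (SE 0.12), though it is nearly identical to Acot1 and reads may fall on either copy. In each of these genes the LLC libraries lay above all PBS libraries.

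The lists nearer to the receptors or outside the mitochondrion had smaller median differences. Of 17 PPAR partners and coregulators, 11 were above 0 with a median of 0.04. In 0 of them were the groups apart, against 9.50% of all genes higher in LLC and 3.94% lower. In so short a list a count of 0 is near those shares. Lpin1, the phosphatidate phosphatase that also coactivates PPARs, had the smallest p there, at 44.1, 31.1 and 23.6 FPKM in PBS and 39.9, 55.8 and 67.0 FPKM in LLC (difference 0.72, SE 0.29, limma adjusted p = 0.649). Of 15 peroxisomal oxidation genes, 12 were above 0 with a median of 0.17. In 5 of them every LLC library lay above every PBS library, against 9.50% of all genes. Hsd17b4, the peroxisomal bifunctional enzyme, was among the 5, with a difference of 0.34 (SE 0.12, limma adjusted p = 0.544).

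Genes that use the same chemistry on other substrates were mixed. Of 8 acyl-CoA dehydrogenases outside the members, 6 were above 0 with a median of 0.20. Ivd, which acts on isovaleryl-CoA from leucine, ran the other way, at 44.2, 38.9 and 35.1 FPKM in PBS and 34.9, 25.6 and 30.3 FPKM in LLC (difference -0.37, SE 0.16, limma adjusted p = 0.679), with the groups just apart. Of 6 genes of ketone body use, a list that includes Acat1, 4 were above 0 with a median of 0.20. Oxct1, which starts the use of ketone bodies, overlapped with a difference of -0.38 (SE 0.18). Of the 18 citrate cycle genes, 11 were above 0. Idh2, the NADP-linked isocitrate dehydrogenase, was the one with the largest difference, at 96.4, 80.8 and 94.3 FPKM in PBS and 175.1, 152.0 and 127.2 FPKM in LLC (difference 0.73, SE 0.16, limma adjusted p = 0.303).

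**Figure D4:**
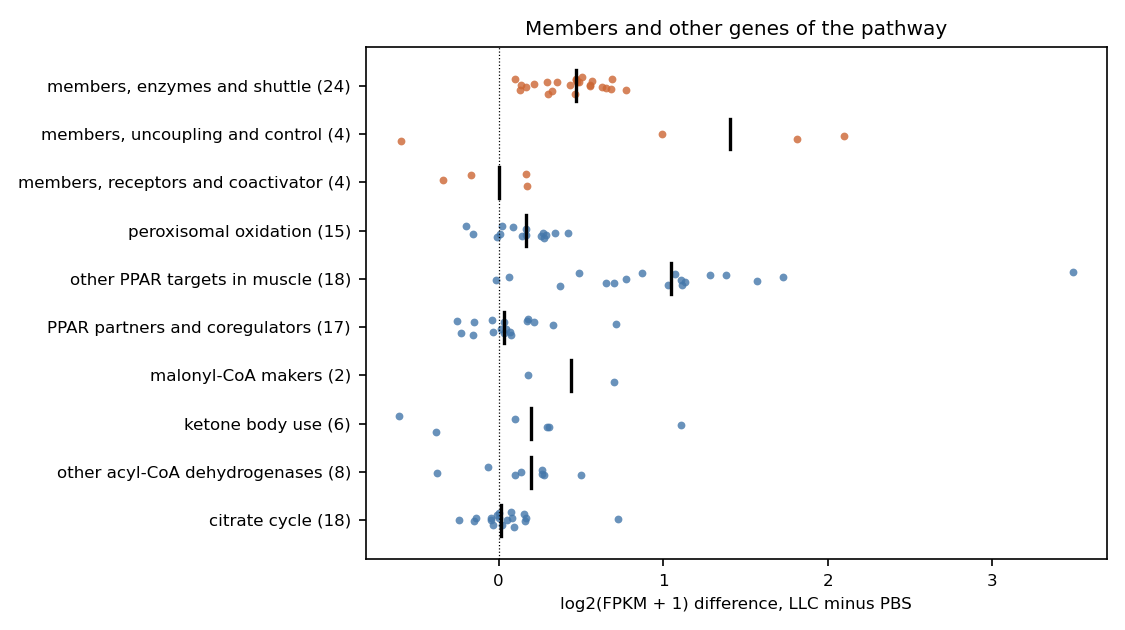
LLC minus PBS difference in log2(FPKM + 1) (x axis) for each gene of the members, in 3 groups (orange), and of 7 further lists (blue), with the number of genes tested in brackets and the median as a bar. The members' enzymes and the genes listed as other PPAR targets lie mostly right of 0, and the coregulators and citrate cycle genes lie around it.

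In the myotubes, individual member peaks differed in both directions, and the members' median lay close to that of all peaks. As deposited, each library was scaled to 10 M tags, and 6 of the 63 member peaks were higher in C26 medium, with a median log2 difference, C26 minus control, of -0.57, against -0.54 over all 37358 peaks tested. In 25 member peaks every C26 library lay below every control library, against 34.0% of all peaks. limma called 0 member peaks higher and 1 lower on that scale, against 1.15% and 1.88% of all peaks. With median-of-ratios scaling, which centres the libraries on the typical peak, so that a shift shared by all peaks cannot be seen, the median over all peaks was -0.02, and 29 member peaks were above 0 and 34 below, with a median of -0.06. limma then called 7 higher and 5 lower, against 17.1% and 12.7% of all peaks. Groups were apart in 8 member peaks higher and 9 lower, against 21.7% and 19.4%. In each of these scaled counts of calls and of groups apart, the share of the 63 member peaks was below that of all peaks.

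**Figure D5:**
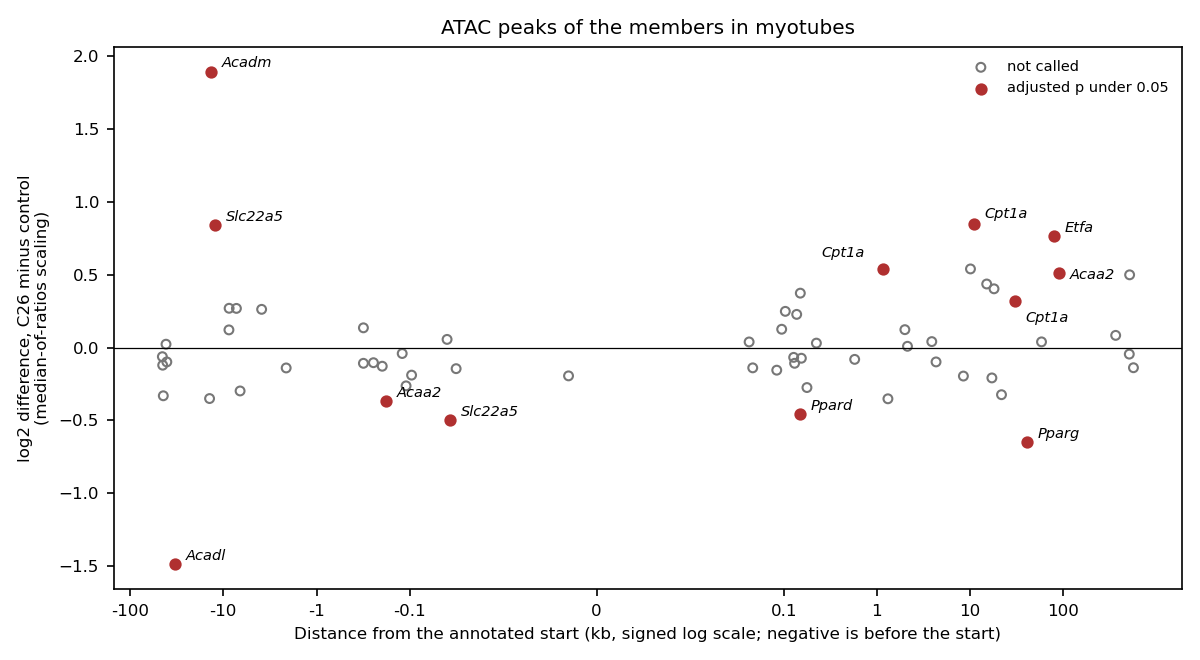
C26 minus control log2 difference with median-of-ratios scaling (y axis) for the 63 member peaks by distance from the annotated start (x axis, kb, signed log scale). Filled points are the 12 peaks with a limma adjusted p under 0.05, named by gene: 7 higher, all more than 1000 bp from the start, and 5 lower, 3 of them at a start.

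The strongest peak differences lay away from the starts. The peak at chr3:153958010-153958289 (mm10), between genes and 13506 bp upstream of Acadm, held 6.70, 4.39 and 3.46 normalised tags in control 1, 2 and 3 and 18.3, 13.2 and 12.1 in C26 1, 2 and 3. It was higher in every C26 library on either scale, with a difference of 1.43 as deposited (SE 0.47, limma adjusted p = 0.0645) and 1.89 after scaling (SE 0.33, limma adjusted p = 1.2e-05), and it was in 0 control and 3 C26 peak lists of the authors. The peak at chr1:66895821-66896401, between genes and 32802 bp upstream of Acadl, went the other way. It held 21.4, 12.5 and 20.3 normalised tags in control and 5.07, 2.08 and 4.94 in C26, and was in 3 control and 0 C26 peak lists. The peak lists were made from these same libraries, so the list counts of the Acadm and Acadl peaks add no support. Each of these peaks was listed only through the group where it was high. For the Acadl peak, the values on both scales were as follows. Its difference was -1.95 as deposited (SE 0.47, limma adjusted p = 0.00448), the single member peak called on that scale, and -1.49 after scaling (SE 0.34, limma adjusted p = 0.000595). The medium- and long-chain dehydrogenase genes thus had distal peaks of opposite direction, while the peaks at their starts overlapped between the groups after scaling (-0.07 for Acadm and -0.07 for Acadl).

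Cpt1a had 3 of the 7 higher peaks, all within its introns, on the scale where limma called 17.1% of all peaks higher. The peak at chr19:3334023-3334472, in intron 1 and 10946 bp downstream of the start, held 25.23, 26.54 and 25.05 tags in control and 52.9, 40.7 and 47.8 in C26 after scaling. Its difference was 0.85 after scaling (SE 0.15, limma adjusted p = 1.5e-05) and 0.33 as deposited, where the groups overlapped. The other called peaks, at 1179 and 30487 bp, had scaled differences of 0.54 and 0.32 (SE 0.20 and 0.11), each called in only 2 of the 6 fits that left out 1 library. Further Cpt1a intron peaks at 2136 and 10104 bp were not called. Their scaled differences were 0.01 (SE 0.18) and 0.54 (SE 0.24), with overlapping groups. The peak over the Cpt1a start did not follow: it held 162.2, 85.0 and 105.3 normalised tags in control and 87.0, 85.0 and 85.7 in C26, with a scaled difference of 0.14 (SE 0.10, limma adjusted p = 0.296).

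Slc22a5 had called peaks of both directions. At its start, chr11:53891388-53892091, the peak held 81.6, 71.7 and 76.4 tags in control and 55.7, 50.4 and 55.5 in C26 after scaling (difference -0.50, SE 0.11, limma adjusted p = 0.000395). The groups were apart on either scale. At 12143 bp upstream, chr11:53903546-53904146, the peak held 15.3, 13.9 and 9.77 tags in control and 19.5, 25.2 and 27.1 in C26 after scaling (difference 0.84, SE 0.23, limma adjusted p = 0.00409). As deposited these groups overlapped.

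The receptor and coactivator genes had 17 peaks, of which 6 were above 0 after scaling, against 47.9% of all peaks. After scaling, limma called 0 of the 17 higher and 2 lower, against 17.1% and 12.7% of all peaks. The lower calls were thus near the share of all peaks. The peak over the Ppard start, chr17:28232491-28233318, held 70.5, 58.6 and 64.5 tags in control and 49.2, 46.9 and 44.1 in C26 after scaling (difference -0.46, SE 0.12, limma adjusted p = 0.00251). A peak at an exon within Pparg, chr6:115462951-115463313, held 39.6, 42.4 and 43.7 tags in control and 20.9, 32.7 and 26.8 in C26 (difference -0.65, SE 0.16, limma adjusted p = 0.00145). In both, all C26 libraries lay below all control libraries on either scale. Ppara had no peak of its own name, and the Ppargc1a peak 1318 bp downstream of an annotated start was not called (difference -0.35, limma adjusted p = 0.115). A Ppard peak 8646 bp upstream (0.27, SE 0.12, limma adjusted p = 0.0711) and a distant Ppargc1a peak, 512123 bp downstream (0.50, SE 0.27, limma adjusted p = 0.165), ran the other way, with all C26 libraries above all control libraries after scaling, and were not called.

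The remaining calls were at Acaa2 and Etfa. The Acaa2 promoter peak held 105.9, 117.2 and 102.8 tags in control and 75.6, 79.1 and 98.0 in C26 after scaling (difference -0.37, SE 0.10, limma adjusted p = 0.00408). A peak 89429 bp downstream of Acaa2 (0.51, SE 0.17) was called in 4 of 6 fits without 1 library. A peak 79701 bp downstream of Etfa, which lies in an intron of another gene (0.77, SE 0.28), was called in 3 of 6. The first 8 peaks by p after scaling, those of Acadm, Cpt1a at 10946 bp, Slc22a5 (both), Acadl, Pparg, Ppard and the Acaa2 promoter, kept their scaled call in 6 of 6 such fits.

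At the promoters, 25 members had a peak of their own name within 1000 bp of an annotated start. After scaling, 8 of the 25 were above 0 with a median of -0.11, and limma called 0 higher and 3 lower (Slc22a5, Ppard and Acaa2). Of the 10777 promoter peaks of all genes, limma called 2.51% higher and 21.2% lower, and 23.6% were above 0 with a median of -0.16. A peak covered the listed start of 26 members, for 2 of them under the name of another gene: Hadha under the Hadhb peak at chr5:30154593-30155673, and Etfdh under a peak named 4930579G24Rik. No peak lay within 1000 bp of the listed starts of Cpt1b, Ucp2, Ucp3 or Ppara, among which are the muscle-type CPT1 and the gene with the largest RNA difference. Among markers of the cell type, Des and Ttn had promoter peaks and Acta1, Myog, Myh3, Ckm and Mymk had none, and 0 of 8 fat cell markers had one.

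The member promoters of the cultured cells can be set beside the RNA of tumour-bearing mice as values only. Decr1, 0.51 higher in the RNA, had a promoter peak with a scaled difference of 0.37 (SE 0.16, limma adjusted p = 0.0778), all C26 libraries above all control libraries. Mlycd, 0.99 higher in the RNA, had a promoter peak of 74.2, 38.8 and 54.4 normalised tags in control and 41.4, 37.5 and 36.0 in C26, with a scaled difference of 0.04 (SE 0.13, limma adjusted p = 0.855). Angptl4, 1.82 higher in the RNA, had a promoter peak with a scaled difference of -0.27 (SE 0.13, limma adjusted p = 0.0924), all C26 libraries below all control libraries. The promoter stretches printed above lay at least in part under peaks for Slc25a20 (0.25, SE 0.24), Etfa (0.03, SE 0.12) and Echs1 (-0.26, SE 0.10, limma adjusted p = 0.0503), none of them called, and under no peak for Ucp3. The assays come from different tumours and from tissue and cells, so these values are not a test of one against the other.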

How the data were processed

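The 12 libraries were analysed from 2 deposited tables. RNA values are FPKM that the authors made with HOMER from exons of 1 transcript per RefSeq gene, both strands counted, per the file headers, so overlapping genes cannot be told apart. ATAC values are signal deposited by the authors as the tags in each mm10 peak with every library brought to 10 M, per the file headers. The submitters' processing notes name HISAT2, HOMER, DESeq2, Bowtie2 and MACS2. The sources used here give no versions and no trimming or duplicate handling.

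Log2(FPKM + 1), for genes whose mean reached 1 FPKM, and log2(tags + 1) of peaks with a mean of at least 5, were compared with limma 3.58.1 (empirical Bayes with a trend, two-sided, Benjamini-Hochberg over the whole table, threshold 0.05). A difference on these scales understates the change of low values. Step sizes gave whole read ends (within 0.1) for 100% of low values checked, and these entered edgeR 4.0.16 and DESeq2 1.42.0 as alternatives. Since the median over all peaks was -0.54 as deposited, ATAC differences are also given with median-of-ratios scaling (factors 0.785 to 1.81). Groups of 3 against 3 allow no exact two-sided permutation p below 0.1.

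On simulated counts limma called 1 of 100 genes changed by 1 on the log2 scale and 65 of 100 changed by 2 for LLC against PBS. It also called 8 of the 12781 unchanged genes there. For C26 against control it called 0 and 48 of 100 peaks as deposited, and 88 and 100 of 100 scaled. Of the 37158 unchanged peaks it called 0 as deposited and 4 scaled. 0 pairs of libraries were identical. Same-numbered libraries deviated together in 1 of 3 RNA pairs, so the numbers were not taken as pairs.

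The members, gene lists and marker lists were chosen with earlier results of these data known. All members were accounted for. Libraries are given one by one for members with an unadjusted limma p under 0.05, the receptors and 6 members set by name. Up to 4 genes of smallest p are named per further list, and some results of these lists are not reported here. Peaks named are the promoter peaks and the 10 of smallest p, with the other called ones. Alternatives covered pseudocounts, filters, scaling, tools, the replicate block and each library left out.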

Additional observations from a re-analysis of the deposited data

How the results depend on the processing

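For the RNA, limma called 0 members in every alternative fit, and 7 with DESeq2 on recovered reads; the further lists likewise went from 0 to 7 genes with DESeq2. The count of members above 0 stayed at 29 or 30 when 1 library was left out. Of the 32 members, 30 kept their sign in all 17 other fits. Without 1 library, Ucp2 ran from -1.666 to 0.106 (0.106 without PBS 3) and Ppargc1a from -0.281 to 0.028 (0.028 without PBS 1), and Ppargc1a was 0.085 without PBS 1 and LLC 3. For the ATAC peaks as deposited, the 1 called member peak became 0 with a mean of at least 20, 12 by median-of-ratios scaling, 10 by quantile normalization, 12 by edgeR and 3 without the trend. Leaving out 1 library gave 0 to 39 calls, 39 without control 2 and 5 without control 1. The 6 member peaks above 0 became 3 with a mean of at least 20, 29 by median-of-ratios scaling, 26 by quantile normalization and 29 by edgeR, and 3 to 15 without 1 library (15 without control 1, 3 without control 2). Scaled by median of ratios, alternatives chosen after seeing the data gave 9 to 12 calls and 26 to 30 peaks above 0 without 1 library. With the replicate number as a block, counts were 0 RNA members called and 29 above 0, and 1 ATAC peak called and 6 above 0 (12 and 29 scaled). Deviations of same-numbered RNA libraries had correlations of -0.09, 0.60 and -0.60, so the numbers were not taken as pairs. Over single members and peaks, 39 values of alternative fits gained a call and 17 lost one. A window of 3000 bp gave 26 members a promoter peak, against 25 at 1000 bp. With 3 libraries a group, RNA changes of 1 on the log2 scale were mostly missed on simulated data, so a member without a call may still differ.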
